A study of Mus musculus with 4 samples.

Results

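The 10 genes described here are members of the interleukin-6 (IL-6) cytokine family: the ligands Il6, Lif, Il11 and Osm, the ligand-specific receptors Il6ra, Il11ra1, Lifr and Osmr, the shared receptor subunit Il6st (gp130), and the feedback inhibitor Socs3. They were taken as a fixed list, not by their values, from 25818 genes found in at least 3 cells. Single-cell RNA-seq measured their mRNA in lungs taken 14 days after bleomycin (0.8 U/kg), a drug that injures the lung and causes fibrosis, from 2 WT mice and 2 Tubb3-/- mice. The Tubb3-/- mice were homozygous for a Cre insertion at the translation start of Tubb3, which encodes β-III tubulin. WT littermates were the controls, the mice were 8 to 11 weeks old, and all 4 had received bleomycin, so no uninjured lung was part of these comparisons. Each mouse gave a whole-cell library, depleted of red blood cells, and a mural-enriched library. For the latter, endothelial, immune and epithelial cells were depleted, and MCAM+ PDGFRα- cells were mixed 1:1 with MCAM- cells. Cells of all 4 mice were labelled with tags, pooled by library type before sorting, and assigned to mice by tag.

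IL-6 family cytokines act through receptor complexes that share gp130. IL-6 and IL-11 first bind a receptor of their own, IL-6R or IL-11R, and the pair then engages gp130, whereas LIF and oncostatin M signal through dimers of gp130 with LIFR or OSMR. Engaged receptors activate JAK kinases and STAT3, and STAT3 induces SOCS3, which binds gp130 and dampens the signal. In injured lung the family is known for acute phase responses and for communication between macrophages and mesenchymal cells.

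Cells were placed in a lineage by 1 or more UMIs (unique molecular identifiers, counted mRNA molecules) of Ptprc (immune), Cdh5 (endothelial), Epcam (epithelial), Msln (mesothelial), Higd1b or Myh11 (mural) or Pdgfra (fibroblast). Of 30083 cells, 4383 were immune, 2276 endothelial, 321 epithelial, 322 mesothelial, 4505 mural and 3785 fibroblast, while 13731 (45.6%) carried markers of several lineages and were dropped and 760 carried none. The UMIs of each mouse were summed within each lineage and expressed in CPM, the UMIs of a gene scaled to the same total in every sum, with 1004521 to 21197453 UMIs per sum. Both libraries of a mouse entered these sums, in unlike parts. Whole-cell and mural-enriched libraries gave 4290 and 93 immune cells, 442 and 4063 mural cells, and 1321 and 2464 fibroblasts. Differences between lineages in these sums therefore cannot be fully told apart from differences between the 2 library types. All 6 further markers of a lineage were highest in it, except that Dcn was not highest in fibroblasts. The mural lineage was 89.0% Myh11-positive cells without Higd1b and had 42 Higd1b-positive cells without Myh11, so it represents smooth muscle-type cells far more than pericytes. In whole-cell libraries Tubb3 was at 1.93 and 0.868 CPM in WT and 0.262 and 0.321 CPM in Tubb3-/- mice. In mural-enriched libraries it was at 5.49 and 3.67 CPM in WT and 0.789 and 0.680 CPM in Tubb3-/- mice. Replicate 1 of each genotype had high Ddx3y (above 100 CPM in fibroblasts, against 3.96 and 2.86 CPM in the replicates 2), a Y-linked gene, so the numbers also split the mice by sex. Libraries of the same pool shared 0 cell barcodes, which follows from splitting a pool by tag and is no check of the labels.

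The genes lie in 2 neighbouring pairs on the mm10 assembly. Osm (chr11:4236420-4241026) and Lif (chr11:4257557-4272514) are 16530 bases apart with 0 genes between them, and Osmr (chr15:6813577-6874969) and Lifr (chr15:7090614-7197489) are 215644 bases apart with 0 coding genes between them. Il6 is at chr5:30013114-30019981, Il11 at chr7:4772373-4782859, Il6ra at chr3:89864059-89913196, Il6st at chr13:112464070-112510086 and Socs3 at chr11:117966079-117970047. Il11ra1 (chr4:41699989-41769474) overlaps 6 other annotated genes, and its near-identical copies Gm13305 and Il11ra2 had 5 and 4 UMIs against 43726 for Il11ra1, so its counts could include reads of the overlapping genes. Short motifs of 2 kinds were searched in the 250 bases before each RefSeq start (GRCm38.p6): TTCNNNGAA, the core of STAT binding sites, and TGANTCA, the core of AP-1 sites. Both read the same on either strand. The 4 windows of 30 bases below hold the matches found among the members with a RefSeq entry, with the motif in capitals. Osm had no such entry and was not searched.
Socs3, TTCNNNGAA, chr11:117969501-117969530, minus strand: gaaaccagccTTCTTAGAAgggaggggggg
Il6, TGANTCA, chr5:30012864-30012893, plus strand: cTGAGTCActtttaaagaaaaaaaagaaga
Lif, TGANTCA, chr11:4257329-4257358, plus strand: ccagtcagctgTGACTCAggccatagtggc
Il11, TGANTCA, chr7:4778221-4778250, minus strand: aggagggagggTGAGTCAggatgtgtcagg
Of 32851 such promoter windows, 7.02% held the first motif and 6.75% the second. The matches began 154 bases before the RefSeq start of Socs3, 249 before Il6, 228 before Lif and 98 before an inner start of Il11. The RefSeq start of Socs3 was inside the gene span given above, and its match also lay inside that span. Socs3 was thus the only member searched that had a STAT core in these windows. The 3 ligand genes searched, all but Osm, had an AP-1 core. A match is a description of the letters, not evidence of binding.

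Among ligands, Il6 was a transcript of fibroblasts. In the fibroblast lineage it was at 665 and 311 CPM in the WT mice and 249 and 206 CPM in the Tubb3-/- mice (replicates 1 and 2 throughout). In the mural lineage it was at 118 and 92.5 CPM in WT and 69.7 and 64.1 CPM in Tubb3-/- mice, and in the immune lineage between 28.3 and 50.8 CPM. Every fibroblast value lay above every value of the other lineages. By edgeR's quasi-likelihood test on the 24 sums, Il6 was 4.17-fold higher in fibroblasts than in mural cells (log2 2.06, standard error (SE) 0.24, adjusted p = 2.57e-07 over all genes), and mural cells exceeded immune cells by 1.99-fold (adjusted p = 0.000779 by edgeR). Immune cells in turn exceeded mesothelial cells (log2 0.95, SE 0.32, adjusted p = 0.0131 by edgeR), whereas mesothelial, endothelial and epithelial cells, at 5.76 to 32.2 CPM, were not called apart from one another in that order. Lineages differed widely in general: 44.4% of all genes were called between mural cells and fibroblasts, where 7 of the 10 members were. Between immune cells and the others, in the order endothelial, epithelial, mesothelial, mural and fibroblast, 9, 7, 8, 9 and 10 members were called, against 65.5%, 66.7%, 64.5%, 75.5% and 75.5% of all genes. Endothelial cells differed from epithelial cells in 6 members (59.4% of all genes), from mesothelial cells in 7 (51.5%), from mural cells in 7 (62.8%) and from fibroblasts in 10 (63.3%). Epithelial cells differed from mesothelial cells in 5 members (48.5%), from mural cells in 8 (60.4%) and from fibroblasts in 9 (60.1%), and mesothelial cells from mural cells in 8 (44%) and from fibroblasts in 8 (41.7%).

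Lif had its highest mean in fibroblasts, although immune cells were above fibroblasts in both replicates 2. It was at 38.7 and 14.9 CPM in WT and 36.4 and 15.9 CPM in Tubb3-/- fibroblasts, so that both replicates 1 were above both replicates 2. Immune cells held 7.34 and 18.4 CPM in WT and 13.1 and 19.8 CPM in Tubb3-/- mice. The fibroblast excess over immune cells was 0.76 on the log2 scale (SE 0.33, adjusted p = 0.0428 by edgeR), and it was lost when WT replicate 1 (log2 0.21) or Tubb3-/- replicate 1 (log2 0.50) was left out. In the other 4 lineages Lif was between 1.44 and 11.6 CPM, from 2 to 153 UMIs.

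Il11 was scarce throughout. Fibroblasts had 7.09 and 4.18 CPM in WT and 6.65 and 5.92 CPM in Tubb3-/- mice, from 57 to 141 UMIs. The mesothelial mean was higher only through 1 cell: 17 of the 23 Il11 UMIs of WT replicate 1 came from it, and the other 3 mesothelial sums had 3 to 5 UMIs. Fibroblasts exceeded epithelial cells (log2 1.40, SE 0.51, adjusted p = 0.0215 by edgeR), and mural, endothelial and immune cells were at 0 to 1.21 CPM.

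Osm, in contrast, was an immune transcript. It was at 121 and 124 CPM in WT and 145 and 151 CPM in Tubb3-/- immune cells, against at most 8.05 CPM in any other sum. Endothelial cells, the next lineage, were 37.3-fold lower (log2 5.22, SE 0.28, adjusted p = 2.09e-13 by edgeR), and they exceeded mural cells (log2 1.63, adjusted p = 0.0018 by edgeR) and fibroblasts (log2 1.32, adjusted p = 0.00522 by edgeR), while the other pairs among these 5 lineages were not called. After each cell was thinned to 2000 UMIs, 12.6% to 16.0% of immune cells and 0.340% to 0.571% of fibroblasts held an Osm UMI, with median depths of 6876 and 17034 UMIs before thinning. Without thinning these shares were 25.6% to 31.0% and 1.91% to 2.94%. The fibroblast level of Osm was 3.40 to 3.81 CPM in whole-cell libraries and 0.112 to 0.573 CPM in mural-enriched libraries, which had been depleted of immune cells.

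**Figure D1:**
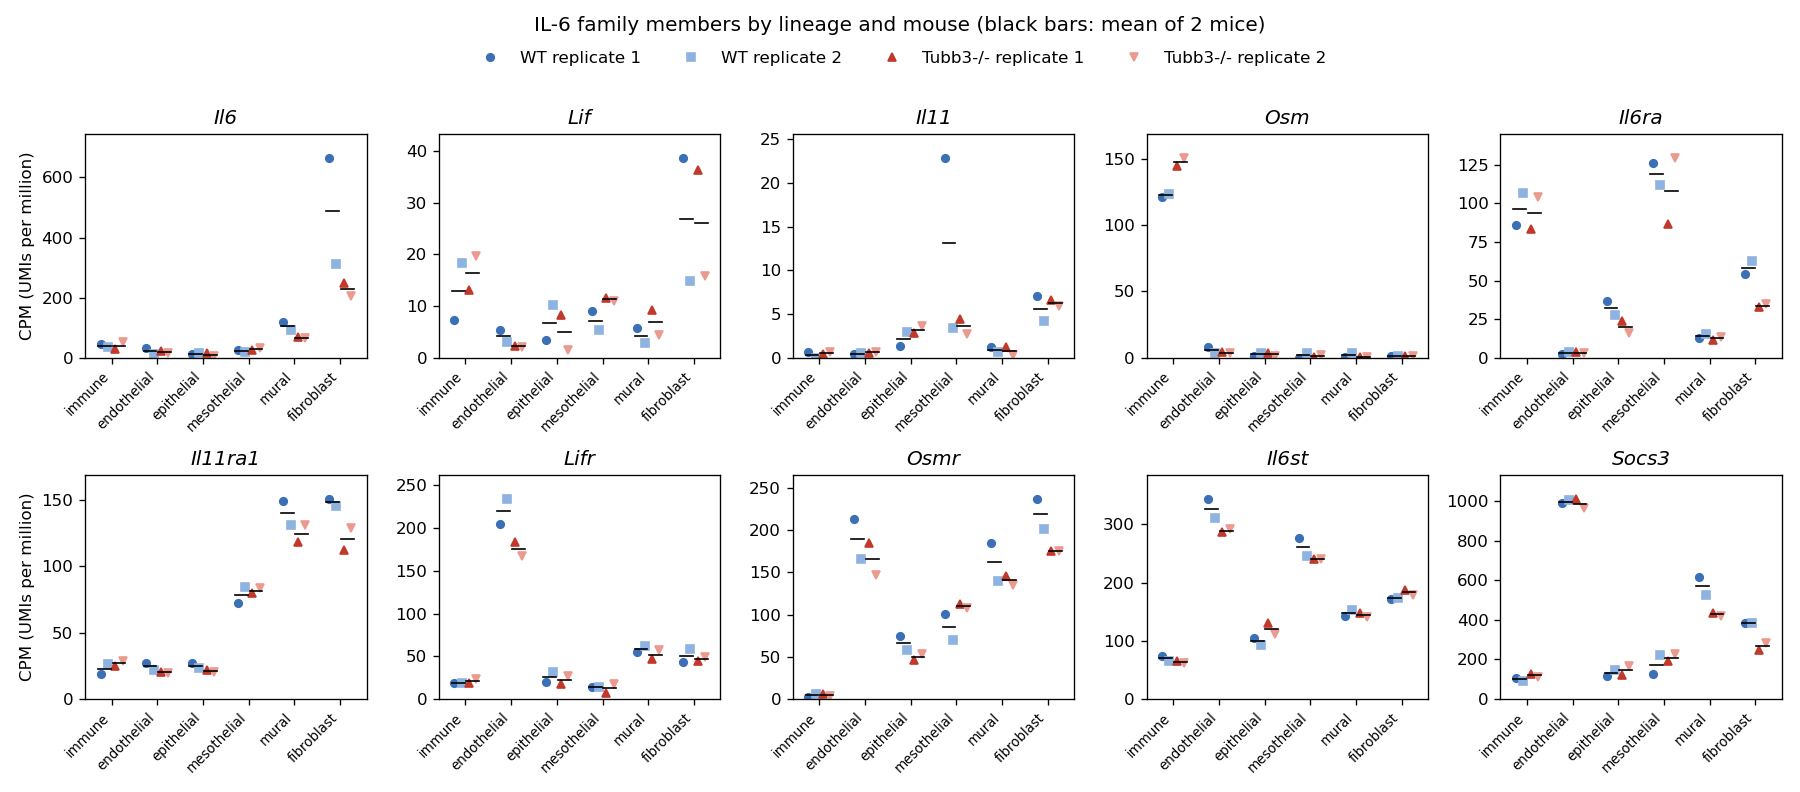
Level of each of the 10 members (CPM, vertical axis from 0) in the 6 lineages, with 1 point per mouse and a black bar at the mean of the 2 mice of a genotype. Il6 stands out in fibroblasts (206 to 665 CPM), Osm in immune cells (121 to 151 CPM), Lifr and Socs3 in endothelial cells, and Osmr is near 0 only in immune cells (2.93 to 6.48 CPM).

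Within the immune lineage, cells were divided by 1 of 6 genes, leaving out 444 cells with several of them and 913 with none. In cells of Csf1r (mononuclear phagocytes, 1150 cells) Osm was at 203 and 168 CPM in WT and 254 and 197 CPM in Tubb3-/- mice. In cells of Cxcr2 (neutrophils, 313 cells) it was at 326 and 280.1 CPM in WT and 486 and 441 CPM in Tubb3-/- mice, from 600 UMIs in all. T cells, marked by Cd3e, had 5.94 to 9.40 CPM, B cells (Cd79a) 2.58 to 59.8 CPM and NK cells (Ncr1) 16.6 to 155 CPM. Phagocytes and neutrophils were thus above T, B and NK cells in every mouse, and the 2 genotypes overlapped in phagocytes and not in neutrophils. Neutrophils were only 88 and 95 cells in WT and 71 and 59 cells in Tubb3-/- mice. Over the whole immune lineage, 19.2% of all genes had both Tubb3-/- mice above both WT mice. These subsets were described without a test.

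Immune Il6 came from few cells. Of 4383 immune cells, 455 held an Il6 UMI, and 39 cells with 10 or more UMIs held 66.7% of the 1818 UMIs. In 17 cells with Cpa3, a protease gene of mast cells and basophils, Il6 reached 3538 and 2307 CPM in WT and 223 and 0 CPM in Tubb3-/- mice, but each value rested on 3 to 6 cells. Neutrophil Il6 was 14.2 and 17.7 CPM in WT and 245 and 138 CPM in Tubb3-/- mice, and 3 cells held 117 of its 138 UMIs. Such levels describe single cells more than genotypes. Osm was less concentrated, with 192 of 1247 positive cells holding 54.6% of 6246 UMIs.

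**Figure D2:**
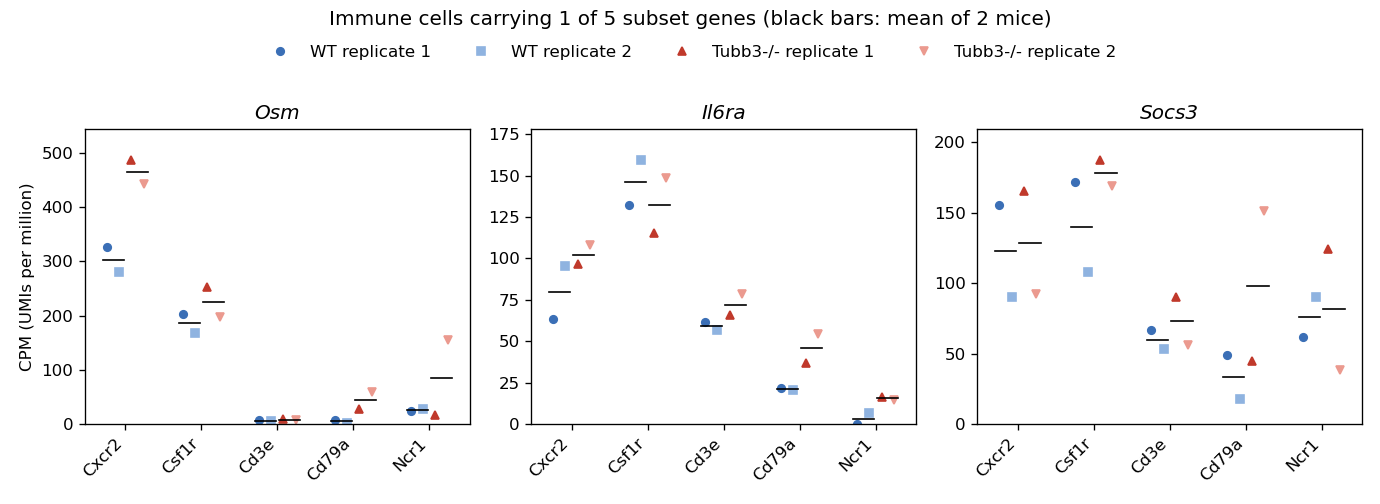
Levels of Osm, Il6ra and Socs3 (CPM, vertical axis from 0) in immune cells carrying only 1 of 5 subset genes: Cxcr2 (neutrophils), Csf1r (mononuclear phagocytes), Cd3e (T cells), Cd79a (B cells) and Ncr1 (NK cells), with 1 point per mouse and bars at the mean of 2 mice. Osm is high in the Cxcr2 and Csf1r cells (168 to 486 CPM) and Il6ra is highest in the Csf1r cells (116 to 159 CPM).

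Il6ra, Lifr and Osmr were highest in other lineages than their ligands, whereas Il11ra1, like Il11, was high in fibroblasts. Il6ra, which encodes the IL-6-binding chain, was highest in immune cells (86.0 and 107 CPM in WT, 83.6 and 104 CPM in Tubb3-/- mice) and mesothelial cells (86.9 to 129.5 CPM), which were not called apart (log2 -0.03, SE 0.15, adjusted p = 0.874 by edgeR). Immune cells exceeded fibroblasts by 2.11-fold (adjusted p = 3.88e-07 by edgeR), and fibroblasts exceeded epithelial cells by 2.00-fold (adjusted p = 5.26e-05 by edgeR). Endothelial cells were the lowest, at 2.68 to 3.52 CPM, and all 4 endothelial values were below all values of the other lineages. Within the immune lineage Il6ra was at 133 and 159 CPM in WT and 116 and 149 CPM in Tubb3-/- phagocytes, and at 56.9 to 78.5 CPM in T cells.

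Il11ra1, encoding the IL-11-binding chain, was a mesenchymal transcript. Fibroblasts had 151 and 146 CPM in WT and 112 and 129 CPM in Tubb3-/- mice, and mural cells 149.5 and 131 CPM in WT and 119 and 131 CPM in Tubb3-/- mice. These lineages overlapped and were not called apart (log2 0.10, SE 0.11, adjusted p = 0.526 by edgeR). Mural cells exceeded mesothelial cells, at 72.7 to 84.6 CPM, by 1.89-fold (adjusted p = 3.44e-06 by edgeR). Immune, epithelial and endothelial cells were between 18.9 and 28.4 CPM.

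Lifr, the receptor of LIF, was highest in endothelial cells, at 205 and 234 CPM in WT and 184 and 168 CPM in Tubb3-/- mice. Mural cells were next at 46.5 to 61.5 CPM, 3.15-fold lower (log2 1.66, SE 0.12, adjusted p = 5.03e-11 by edgeR), and overlapped with fibroblasts at 42.8 to 58.8 CPM. The endothelial Lif level, at 2.13 to 5.37 CPM, was below the fibroblast and immune levels in every mouse.

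Osmr, the receptor subunit for oncostatin M, was broad outside the immune lineage. Fibroblasts had 237 and 201 CPM in WT and 175 and 175 CPM in Tubb3-/- mice, endothelial cells 147 to 213 CPM and mural cells 135 to 185 CPM. Fibroblasts were called above endothelial cells (log2 0.42, SE 0.16, adjusted p = 0.0231 by edgeR), a call lost in whole-cell libraries alone (log2 0.25), and endothelial and mural cells were not called apart (adjusted p = 0.846 by edgeR). Immune cells, which held nearly all Osm, were at 2.93 to 6.48 CPM, 10.9-fold below epithelial cells, the next lowest (adjusted p = 3.40e-12 by edgeR).

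Il6st was found in every lineage with little spread between mice. It ran from 286 to 343 CPM in endothelial cells and 239.8 to 277 CPM in mesothelial cells, through 171 to 187 CPM in fibroblasts and 141 to 153 CPM in mural cells, down to 61.7 to 73.9 CPM in immune cells. Each step of the order was called by edgeR, with adjusted p from 6.30e-06 to 0.0347, although endothelial and mesothelial cells lost their call (log2 0.26) without Tubb3-/- replicate 2. The whole range was 3.84-fold between endothelial and immune cells.

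Socs3, the feedback inhibitor that STAT3 induces, was highest in endothelial cells, at 987 and 1004 CPM in WT and 1010 and 964 CPM in Tubb3-/- mice. Mural cells followed with 617 and 527 CPM in WT and 436 and 421 CPM in Tubb3-/- mice, 1.74-fold lower than endothelial cells (adjusted p = 0.000476 by edgeR). Fibroblasts had 384 and 385 CPM in WT and 249.6 and 284 CPM in Tubb3-/- mice, 1.46-fold below mural cells (adjusted p = 0.0149 by edgeR). Immune cells, at 90.0 to 127 CPM, and epithelial cells, at 116 to 168 CPM, were the lowest and were not called apart (adjusted p = 0.575 by edgeR). Endothelial cells were therefore high in Socs3, Lifr, Osmr and Il6st while lowest in Il6ra.

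Senders and receivers were then compared in the whole-cell libraries by how each gene's UMIs in the 6 lineages were divided among them, which reflects cell numbers as well as levels. UMIs of cells with markers of several lineages or of none were not part of these totals. Fibroblasts held 68.0% to 80.9% of Il6 UMIs, and immune cells 13.0% to 24.5%. Immune cells held 96.7% to 97.2% of Osm UMIs, with 1.15% to 1.44% in fibroblasts. For Lif, fibroblasts held 53.4% and 59.1% in the replicates 1 but 22.5% and 27.6% in the replicates 2, and immune cells held 38.4% and 34.4% in the replicates 1 and 70.0% and 67.9% in the replicates 2. Receiver shares were reversed for the first pair: immune cells held 72.1% to 77.1% of Il6ra UMIs and fibroblasts 17.2% to 22.0%. Osmr UMIs were in fibroblasts (46.7% to 54.7%) and endothelial cells (25.0% to 38.5%), with 1.71% to 3.71% in immune cells. For Il11 and its receptor the main lineage was the same: fibroblasts held 75% to 83.1% of Il11 UMIs and 56.4% to 61.3% of Il11ra1 UMIs.

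The genotypes were compared within each lineage, with the mouse as the replicate. In fibroblasts, the main senders of Il6, both Tubb3-/- mice were below both WT mice for Il6, Il6ra, Il11ra1, Osmr and Socs3, and above them for Il6st. Of all 14778 genes tested in fibroblasts, 23.7% had both Tubb3-/- mice below both WT mice, so 5 of 10 members is to be read against that share, and 24.5% had both above. By edgeR 0 of the 10 members passed an adjusted p of 0.05 (0% of all genes passed), and 5 members had an unadjusted p under 0.05, all lower in Tubb3-/- mice (11% of all genes). DESeq2, used as an alternative, called 2 members, Il6ra and Socs3, and 488 of the 14778 genes.

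Il6ra showed the smallest spread for its difference. It was at 54.0 and 62.6 CPM in WT and 32.6 and 34.7 CPM in Tubb3-/- fibroblasts, a log2 difference of -0.79 (SE 0.09, unadjusted p = 0.00015, adjusted p = 0.0778 by edgeR). Over the 12 alternative settings the difference was between -0.84 and -0.68 and the adjusted p between 0.000306 and 0.748. After thinning, 10.3% and 12.4% of WT and 5.99% and 5.98% of Tubb3-/- fibroblasts held an Il6ra UMI (exact permutation test, p = 0.333, the smallest that 2 against 2 mice allows), beside 0.292% to 0.777% of endothelial cells, whose median depth was 7131 UMIs.

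Socs3 was at 384 and 385 CPM in WT and 249.6 and 284 CPM in Tubb3-/- fibroblasts, without overlap, and did not pass the adjusted threshold (log2 -0.53, SE 0.11, adjusted p = 0.112 by edgeR, 0.00831 to 0.748 over the alternatives). Il6 was at 488 ± 250.1 CPM in WT and 228 ± 30.1 CPM in Tubb3-/- fibroblasts (SD, n = 2 mice each), a log2 difference of -1.12 (SE 0.38, adjusted p = 0.218 by edgeR, 0.00626 to 0.748 over the alternatives). WT replicate 1 set much of this size: without it the difference was -0.40. Thinned fibroblasts with an Il6 UMI were 41.1% and 27.8% in WT and 22.3% and 19.9% in Tubb3-/- mice (exact permutation test, p = 0.333), beside 1.25% to 3.45% of epithelial cells with a median depth of 16068 UMIs. Without thinning the same fibroblast shares overlapped, at 65.5% and 51.9% in WT and 52.8% and 50.3% in Tubb3-/- mice.

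Il11ra1 and Osmr differed by less. Their log2 differences in fibroblasts were -0.31 (SE 0.11, adjusted p = 0.223 by edgeR) and -0.33 (SE 0.13, adjusted p = 0.270 by edgeR). Lif (log2 -0.05, SE 0.56), Il11 (0.14, SE 0.30), Osm (0.09, SE 0.31) and Lifr (-0.11, SE 0.13) overlapped between genotypes, and each of these changed sign under at least 1 alternative. Il6st was at 171 and 174 CPM in WT and 187 and 179 CPM in Tubb3-/- mice (log2 0.08, SE 0.09, adjusted p = 0.711 by edgeR).

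**Figure D3:**
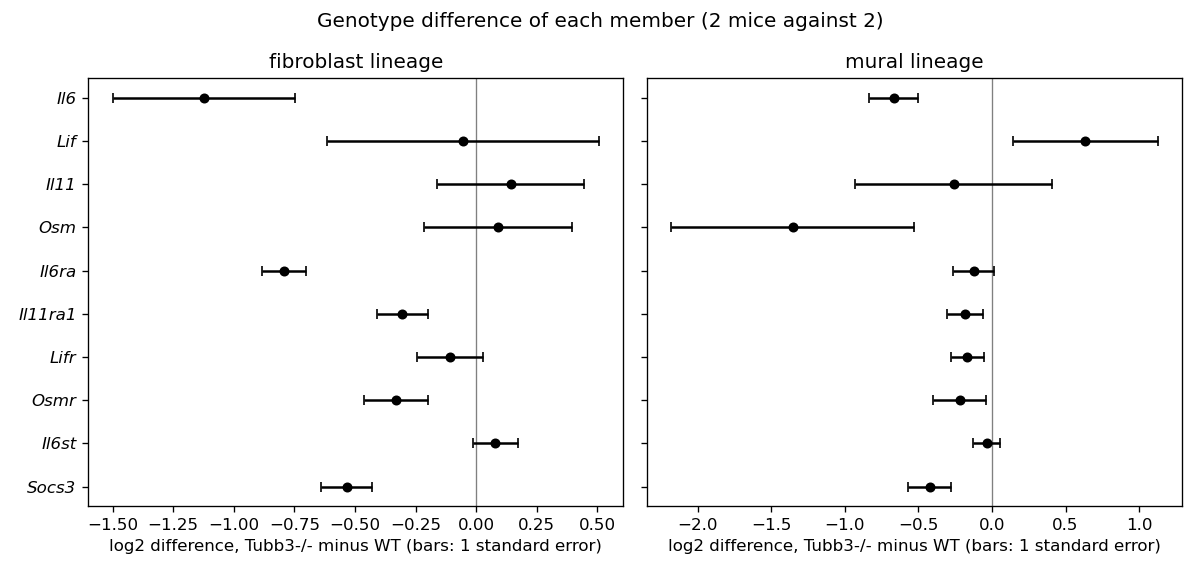
Log2 difference between Tubb3-/- and WT mice (horizontal axis) for each member in the fibroblast and mural lineages, with points at the edgeR estimate and bars of 1 standard error. In fibroblasts Il6 (-1.12) has a wide bar and Il6ra (-0.79) and Socs3 (-0.53) narrow ones; in mural cells Il6 (-0.67) and Socs3 (-0.42) lie below 0.

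Other measures moved with genotype in the same fibroblasts. The median depth per cell was 16345 and 14686.5 UMIs in WT and 19221 and 18336 UMIs in Tubb3-/- fibroblasts. The 6 mural markers summed to 344 and 348 CPM in WT and 645 and 478 CPM in Tubb3-/- fibroblasts, with 0 of the 6 at 0. Of 12 immediate-early and heat shock genes, which dissociation of tissue is known to induce, 0 passed the adjusted threshold. However, 12 of 12 had a negative difference, with a median of -0.45 against -0.0046 for all genes. In 11 of them both Tubb3-/- mice were below both WT mice (23.7% of all genes), and 9 were lower at an unadjusted p under 0.05 by edgeR (11% of all genes). As examples chosen after their values were seen, Fos was at 2668 and 2949 CPM in WT and 1969 and 2023 CPM in Tubb3-/- fibroblasts, and Atf3 at 569 and 508 CPM in WT and 336 and 343 CPM in Tubb3-/- fibroblasts. The part of these differences in the Il6, Il6ra and Socs3 values was not tested.

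Fibroblasts were further divided by the gene with at least 3 times the UMIs of the next among Npnt (alveolar), Pi16 (adventitial), Cthrc1 (fibrotic) and Sfrp1 (inflammatory). This division was added after the data were seen and has no test. Npnt cells were 44.1% and 71.6% of WT and 28.8% and 32.0% of Tubb3-/- fibroblasts, and Cthrc1 cells 2.66% and 1.35% of WT and 7.97% and 3.69% of Tubb3-/- fibroblasts. The members differed among these subsets. Il6ra was highest in Npnt cells and Il11ra1 in Pi16 cells in 4 of 4 mice, and Socs3 was highest in Pi16 cells in 3 of 4. All 4 mice had the lowest Il6ra and Il11ra1 in Cthrc1 cells, but from few counts. These were 23 and 12 cells in WT and 84 and 36 cells in Tubb3-/- mice, with 5, 4, 27 and 3 Il6ra UMIs in the same order. Il11ra1 was at 225 to 275 CPM in Pi16 cells, 110.5 to 138 CPM in Npnt cells and 38.5 to 70.1 CPM in Cthrc1 cells, and the 3 ranges did not overlap. Il6 was at 74.8 to 147 CPM in Cthrc1 cells and 323 to 1052 CPM in Pi16 cells.

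Il6, Il6ra and Socs3 were also compared inside the subsets, after their difference over all fibroblasts had been seen. In Npnt cells, which are part of those fibroblasts, Il6 was at 502 and 247 CPM in WT and 175 and 140 CPM in Tubb3-/- mice. Il6ra there was at 69.1 and 71.4 CPM in WT and 46.3 and 51.0 CPM in Tubb3-/- mice, and Socs3 at 332 and 333 CPM in WT and 258 and 252 CPM in Tubb3-/- mice. In Pi16 cells Il6 (1052 and 512 CPM in WT, 637 and 323 CPM in Tubb3-/- mice) and Il6ra (35.1 and 24.2 CPM in WT, 25.0 and 28.9 CPM in Tubb3-/- mice) overlapped, while Socs3 did not (583 and 597 CPM in WT, 484 and 326 CPM in Tubb3-/- mice).

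**Figure D4:**
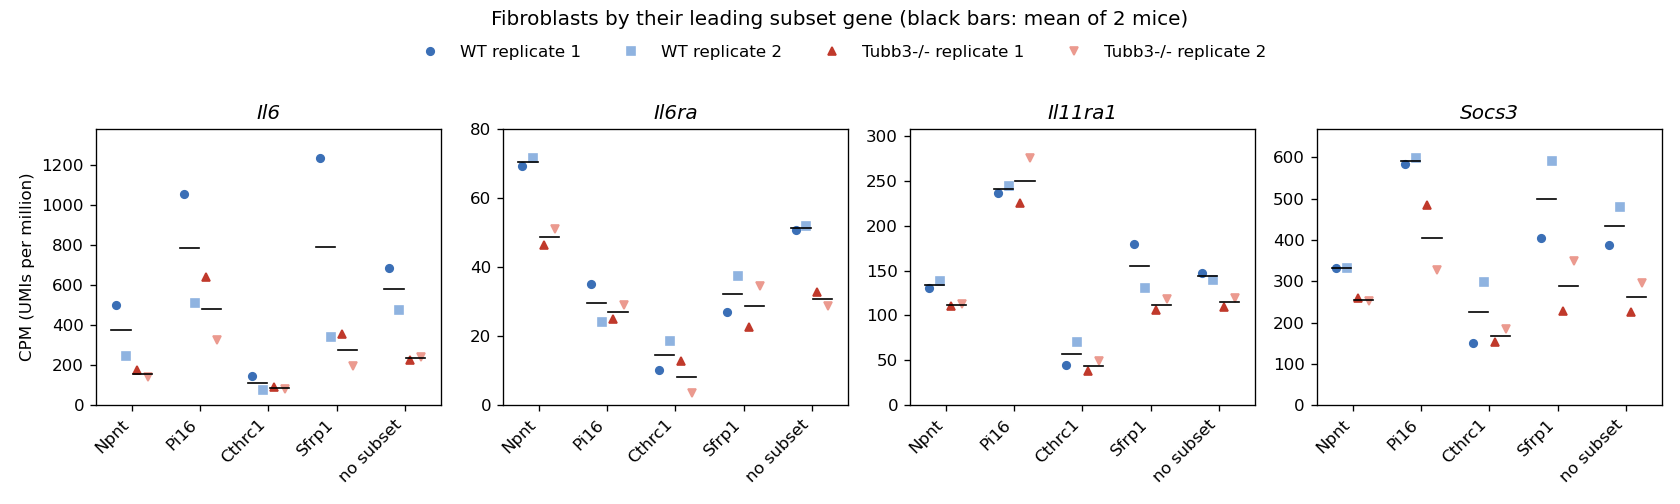
Levels of Il6, Il6ra, Il11ra1 and Socs3 (CPM, vertical axis from 0) in fibroblasts grouped by their leading subset gene, with 1 point per mouse and bars at the mean of 2 mice; "no subset" holds the 1318 cells with no leading gene. Il6ra is highest in Npnt cells and lowest in Cthrc1 cells (from 3 to 27 UMIs per mouse), and Il11ra1 is highest in Pi16 cells (225 to 275 CPM).

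Il6 was unevenly spread over single fibroblasts. The 5% of fibroblasts with most Il6 held 32.2% of its UMIs in WT replicate 1 and 41.1% to 43.9% in the other 3 mice, and a single cell held at most 127 UMIs. Fibroblasts with an Il6 UMI after thinning had more Socs3 than those without in 4 of 4 mice: 499 against 299 and 529 against 324 CPM in WT, and 382 against 209 and 359 against 261 CPM in Tubb3-/- mice. Lif was likewise higher in them, at 55.7 against 26.2 and 19.4 against 12.8 CPM in WT and 61.0 against 28.9 CPM in Tubb3-/- replicate 1, and its 18.5 CPM in Tubb3-/- replicate 2 was also above the cells without. Osmr followed the same direction, from 188 against 172 CPM in Tubb3-/- replicate 2 to 288 against 199 CPM in WT replicate 1. Lifr went the other way in 4 of 4 mice, such as 37.7 against 46.6 CPM in WT replicate 1. Il6ra was lower in WT replicate 2 (58.7 against 64.2 CPM) and higher in the other mice. Cxcl1 and Fos, which are outside the family, were also higher in cells with Il6 in 4 of 4 mice. In WT replicate 2 Cxcl1 was at 620 against 272 CPM and Fos at 3513 against 2708 CPM. Il6 and Socs3 thus occurred together within a mouse, in both genotypes, but so did Il6 and these other genes. This comparison over cells has no test.

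In mural cells, the difference in Il6 and Socs3 had the same sign. Il6 was at 118 and 92.5 CPM in WT and 69.7 and 64.1 CPM in Tubb3-/- mice, a log2 difference of -0.67 (SE 0.17, adjusted p = 0.263 by edgeR, 4.42e-05 to 0.958 over the alternatives). Socs3 was at 617 and 527 CPM in WT and 436 and 421 CPM in Tubb3-/- mice (log2 -0.42, SE 0.14, adjusted p = 0.368 by edgeR, 0.00963 to 0.919 over the alternatives). Of the 10 members, 0 passed the adjusted threshold by edgeR and by DESeq2 (0% of genes by edgeR), and these 2 had an unadjusted p under 0.05, both lower in Tubb3-/- mice (5.58% of all genes). In 3 of 10 members both Tubb3-/- mice were below both WT mice, against 18.8% of all genes. Without WT replicate 1 the Il6 difference was -0.41 and that of Socs3 was -0.24. In the 442 mural cells of the whole-cell libraries Il6 overlapped between genotypes (log2 -0.22). The 6 fibroblast markers summed to 3269 and 2898 CPM in WT and 5412 and 5203 CPM in Tubb3-/- mural cells, with 0 of the 6 at 0. All 12 immediate-early and heat shock genes had a negative difference (median -0.36, against 0.0044 for all genes). In 7 of the 12 both Tubb3-/- mice were below both WT mice (18.8% of all genes). The part of these differences in the Il6 and Socs3 values was not tested.

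In the remaining lineages no member passed the adjusted threshold for genotype by edgeR. Immune Osm was the member with a higher value in Tubb3-/- mice at an unadjusted p under 0.05 (log2 0.29, SE 0.08, adjusted p = 0.521 by edgeR, 0.166 to 1.00 over the alternatives), and 4.24% of all genes met that criterion in that direction. Of 9 members tested in immune cells 2 had both Tubb3-/- mice above both WT mice, against 19.2% of all genes. Endothelial Lifr (log2 -0.31, SE 0.12, adjusted p = 0.322 by edgeR) and epithelial Il6ra (log2 -0.75, SE 0.30, adjusted p = 0.979 by edgeR, from 22 to 54 UMIs per mouse) were the members lower in Tubb3-/- mice at an unadjusted p under 0.05, as were 6.65% and 2.25% of all genes. Both Tubb3-/- mice were below both WT mice in 4 of 9 members in endothelial cells (24% of all genes) and in 3 of 8 in epithelial cells (12.6%). Endothelial Socs3, the highest level of that gene, was at 996 ± 12.0 CPM in WT and 987 ± 32.5 CPM in Tubb3-/- mice (SD, n = 2 each; log2 difference -0.0009, SE 0.09). Of the 8 members tested in mesothelial cells 0 had an unadjusted p under 0.05; 8.37% of all genes did, and 0.231% passed the adjusted threshold there. DESeq2 called 0 members in these 4 lineages.

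Whether the genotype difference itself varied between lineages was tested as an interaction. No member passed, and 0.0367% of all 16346 genes did. Il6ra came nearest (F = 4.21, unadjusted p = 0.0116, adjusted p = 0.407 by edgeR), followed by Socs3 (F = 2.64, adjusted p = 0.613) and Il6 (F = 2.38, adjusted p = 0.646). Il6ra was the 1 member with an unadjusted p under 0.05, against 8.56% of all genes. The differences of Il6, Il6ra and Socs3 in fibroblasts are therefore not shown to be unlike those in other lineages.

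The other genes of the pathway were taken as lists. Of 13 other family genes, Ebi3, which encodes a subunit of IL-27, was at 13.1 to 20.1 CPM in immune cells and 3.68 on the log2 scale above the next lineage (adjusted p = 1.85e-05 by edgeR). Il27ra, the receptor of IL-27, was at 18.5 to 20.5 CPM in immune cells. Adam17, a protease that sheds IL-6R from cells, was at 81.7 to 98.4 CPM in immune cells and 69.8 to 82.1 CPM in fibroblasts. With genotype, 0 of the 8 family genes tested in immune cells and 0 of the 9 tested in fibroblasts were called by edgeR, with 0 at an unadjusted p under 0.05 in either lineage.

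Among 18 JAK-STAT genes, Stat3 was at 390.5 to 538 CPM in mesothelial cells and 322 to 461 CPM in fibroblasts, which were not called apart (adjusted p = 0.717 by edgeR). Jak1, the kinase most tied to gp130, was at 290 to 560 CPM in fibroblasts, and Jak2 was highest in immune cells at 168 to 244 CPM. In fibroblasts 0 of the 18 were called for genotype by edgeR, 6 had an unadjusted p under 0.05 and all 6 were lower in Tubb3-/- mice, against 11% of all genes, with a list median of -0.08. Of 25 genes known as STAT3 targets, 24 were tested in fibroblasts: 0 were called by edgeR, 6 were lower and 6 higher at an unadjusted p under 0.05 (11% and 7.15% of all genes), and the median was -0.02. The targets were thus mixed in direction: 13 of the 24 had a negative difference, the sign of Socs3 in fibroblasts. Whether they moved with Socs3 was not tested. In mesothelial cells, where 0 of 22 targets were called by edgeR, 9 were higher at an unadjusted p under 0.05 (4.2% of all genes) and 0 lower, with a median of 0.58. In the same sums the 6 fibroblast markers were at 4590 and 5031 CPM in WT and 6640.1 and 5982 CPM in Tubb3-/- mice, the 6 mural markers at 301 and 298 CPM in WT and 480.1 and 367 CPM in Tubb3-/- mice, and the 6 mesothelial markers at 3616 and 4125 CPM in WT and 2956 and 2964 CPM in Tubb3-/- mice. The part of these differences in the target genes was not tested.

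The genes whose levels were most like those of each ligand over the 24 sums of mouse and lineage were found by Pearson's r of log2(CPM + 1), as a description. For Osm they were Ncf1 (r = 0.988), Tyrobp (0.987) and Il1rn (0.985). For Il6 they were Hsd11b1 (0.921), Mamdc2 (0.918) and Tnfaip6 (0.907). For Lif they were Aff1 (0.811), Egr2 (0.805) and Cers6 (0.804), and for Il11 they were Slc5a3 (0.885), Tns3 (0.860) and Gpr39 (0.843). Sums of the same lineage share cells of the same kind and the same libraries, so the 24 points are not independent.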

How the data were processed

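Deposited values were raw UMI counts per gene and cell, which the authors made with Cell Ranger 7.1.0 against mm10 per the labels; the gene annotation was not given in the sources used here, and positions are from GENCODE vM21. Tissue had been digested at 37 °C for 60 min and cells multiplexed with CellPlex tags, whose counts were kept out of library sizes. The most abundant tag was the labelled one in all 8 libraries. Cells with 200 to 7500 genes and at most 15% mitochondrial UMIs were kept (30860 of 32121), and 777 doublets called by Scrublet (scanpy 1.11.5) were removed, 0.982% of whole cells and 3.82% of mural-enriched cells.

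Counts were summed per mouse and lineage over both libraries. Genotypes were tested within each lineage by edgeR 4.0.16 (filterByExpr, TMM, quasi-likelihood, Benjamini-Hochberg over all genes, threshold 0.05), lineages over the 24 sums with mouse as a term, and the interaction by a test with 5 terms. With 2 mice per genotype, p-values measure only the spread between these mice, and an exact two-sided permutation p cannot go below 0.333. Shares of cells were compared after thinning each cell to 2000 UMIs. Alternatives were DESeq2 1.42.0 and its size factors, no filter, whole-cell libraries alone, doublets kept, 2 or more marker UMIs, a replicate block, and each mouse left out. A lineage set by a marker with at least 3 times the UMIs of the next was added after seeing the data, as were the fibroblast subsets. The code was tested on simulated data with 200 changed genes.

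The members and lists were chosen with earlier results of these data known. Members were described in every lineage. Genotype differences were printed for all members in fibroblasts and elsewhere at an unadjusted p under 0.05, other genes were given as list counts, and for each ligand the 3 most alike genes reaching 10 CPM were named. Intervals were not used for sums, whose counting error is only part of the spread between mice.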

Additional observations from a re-analysis of the deposited data

How the results depend on the processing

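No member was called for genotype by edgeR, and several alternatives changed that. The cause was not tested. These counts of members are to be read against the numbers of all genes called under the same settings, given in the next paragraphs. In fibroblasts DESeq2 called 2 members, the replicate block 3 (Il6, Il6ra and Socs3) and leaving out 1 mouse 0 to 2. In mural cells testing without a filter called 1, the block 2 (Il6 and Socs3) and leaving out 1 mouse 0 to 2. For the interaction no filter called 1 and leaving out 1 mouse 0 to 1.

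Over all genes, in the order immune, endothelial, epithelial, mesothelial, mural and fibroblast, DESeq2 called 69, 123, 3, 36, 161 and 488 genes where edgeR called 0, 0, 0, 22, 0 and 0. Both tested 14077, 12707, 10422, 9527, 14450 and 14778 genes in that order. Without a filter the counts were 169, 901, 160, 311 and 807 in the first 5, and 797 for the interaction (6 in the test as reported). Whole-cell libraries alone gave 0 in mesothelial cells, 2 in mural cells and 0 for the interaction. Keeping doublets gave 34 in mesothelial cells, and 2 or more marker UMIs gave 86 in endothelial cells and 25 for the interaction. The dominant marker, added after seeing the data, gave 100 in endothelial, 5 in mesothelial and 6 in mural cells, and 17 for the interaction. Leaving out 1 mouse gave 1 to 455 in immune, 6 to 161 in endothelial, 0 to 29 in epithelial, 63 to 344 in mesothelial, 0 to 565 in mural and 0 to 998 in fibroblast cells, and 0 to 250 for the interaction.

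The replicate block called 23 genes in immune, 176 in endothelial, 275 in mesothelial, 524 in mural and 1571 in fibroblast cells. It tested the same genes as edgeR without the block. The labels do not pair the mice, but the numbers split them by the sex genes Xist and Ddx3y, so the block is also a term for sex and the 2 cannot be told apart. Deviations of same-numbered mice correlated across genes at 0.378 in immune, 0.122 in endothelial, 0.106 in epithelial, 0.0548 in mesothelial, 0.450 in mural and 0.492 in fibroblast cells.

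Some small differences changed sign. Lif in fibroblasts was 0.36 (log2) in whole-cell libraries and -0.80 to 0.88 with 1 mouse left out, including 0.88 without WT replicate 1 and 0.45 without Tubb3-/- replicate 2. Il11 was -0.20 by dominant marker and -0.21 (without WT replicate 2) to 0.64 with 1 mouse left out. Osm was -0.0053, -0.041 and -0.010 in whole-cell libraries, with 2 or more marker UMIs and by dominant marker, and -0.062 (without WT replicate 2) to 0.29 with 1 mouse left out. Lifr was -0.27 to 0.10 with 1 mouse left out, positive without WT replicate 2. Il11 in mesothelial against fibroblast cells was -1.14, -0.56 and -0.68 under the same 3 settings and -0.80 (without WT replicate 1) to 0.40 with 1 mouse left out. Il6ra in mesothelial against immune cells was 0.020 with DESeq2's size factors, 0.042, 0.11 and 0.12 under those 3 settings and -0.073 to 0.022 with 1 mouse left out, positive without Tubb3-/- replicate 1. Without thinning the shares of mural cells with Il6 and of fibroblasts with Lif were 0.759 and 0.728 percentage points higher in Tubb3-/- mice. For single members, 243 of the values under alternatives kept direction and side of the threshold, 13 newly passed it, 9 no longer did and 21 reversed.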
